A study of Mus musculus with 6 samples.

Results

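The genes described here are the extracellular and cell-surface zinc metalloproteases of the Mmp, Adam and Adamts families, together with the Timp genes, which encode the tissue inhibitors of metalloproteinases. They were chosen by name: every probe whose single annotated symbol is Mmp, Adam or Adamts followed by digits, or Timp followed by a digit. This gave 58 probes for 53 genes, among 20289 probes on the array, of which 15120 carry 1 gene symbol. The samples were urogenital ridges of mouse embryos at E11.5, with 11 to 12 tail somites, compared between embryos homozygous for a Wt1 deletion (Wt1-/-, strain Mf1, here KO) and Mf1 wild-type embryos (WT). There were 3 single-colour arrays of each genotype, all from pooled tissue of 5 embryos (4 female, 1 male). Wt1, the Wilms tumour gene, encodes a zinc finger transcription factor. Whether every array had a pool of its own is not stated in the labels; the p-values therefore cover array-to-array spread alone, part or all of which could be technical.

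Matrix metalloproteinases (Mmps) cut collagens, laminins and other matrix proteins and are made as proenzymes. Adams are membrane proteins that shed growth factors, receptors and adhesion molecules from the cell surface, or that act in adhesion without a working protease. Adamts enzymes are secreted, bind the matrix and cut proteoglycans or procollagens, and the Timps block these proteases with overlapping preferences. In the urogenital ridge the coelomic epithelium, gonadal primordium and mesonephros form across basement membranes that such enzymes can remodel.

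The arrays had values at similar numbers of probes, while KO arrays differed more among themselves than WT arrays did. Between 20077 and 20099 probes had a value on each array, and arrays correlated at r = 0.983 to 0.986 within KO, 0.991 to 0.992 within WT and 0.966 to 0.972 across genotypes (log2 values across probes, which are not independent replicates). Wt1 itself, on its brighter probe, had deposited intensities of 14.3, 15.7 and 14.2 in KO and 44.1, 43.6 and 39.1 in WT. The position of that probe relative to the deletion is not given in the sources used here. Of 8 gonadal primordium markers on the array, 6 were bright enough to test in these ridges (Star and Cbx2 were not), and of 7 nephric duct and tubule markers 6 were (Pax8 was not).

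Of the 58 member probes, 34 passed the filter on dim probes, which asks for a mean log2 intensity over the 6 arrays above the log2 of 0.217. The filter was met by 9 of 20 Mmp probes, 13 of 24 Adam probes, 9 of 10 Adamts probes and 3 of 4 Timp probes. Among the tested probes 11 were lower and 4 were higher in KO at an adjusted p under 0.05 (limma, Benjamini-Hochberg over all 15062 tested probes). That is 44.1% called, against 41.3% of all tested probes, so the share of called members was close to the share over the whole array. By direction, 32.4% of the tested members were lower, against 17.2% of all tested probes, and 11.8% were higher, against 24.1%. The median log2 change was -0.17 over the tested members and 0.09 over all tested probes, but 0.049 over all 58 members when the filter was dropped, against 0.14 over all probes. Past adjusted p 0.05, 7 of the 34 member probes also reached 1.5-fold (6 lower and 1 higher), where 15.5% of all tested probes did (8.68% lower and 6.83% higher). The 3 KO and 3 WT arrays did not overlap at 17 of the 34, or 50.0%, against 52.8% of all tested probes. KO lay below WT at 12 of these, against 21.4% of all tested probes, and above WT at 5, against 31.4%.

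**Figure D1:**
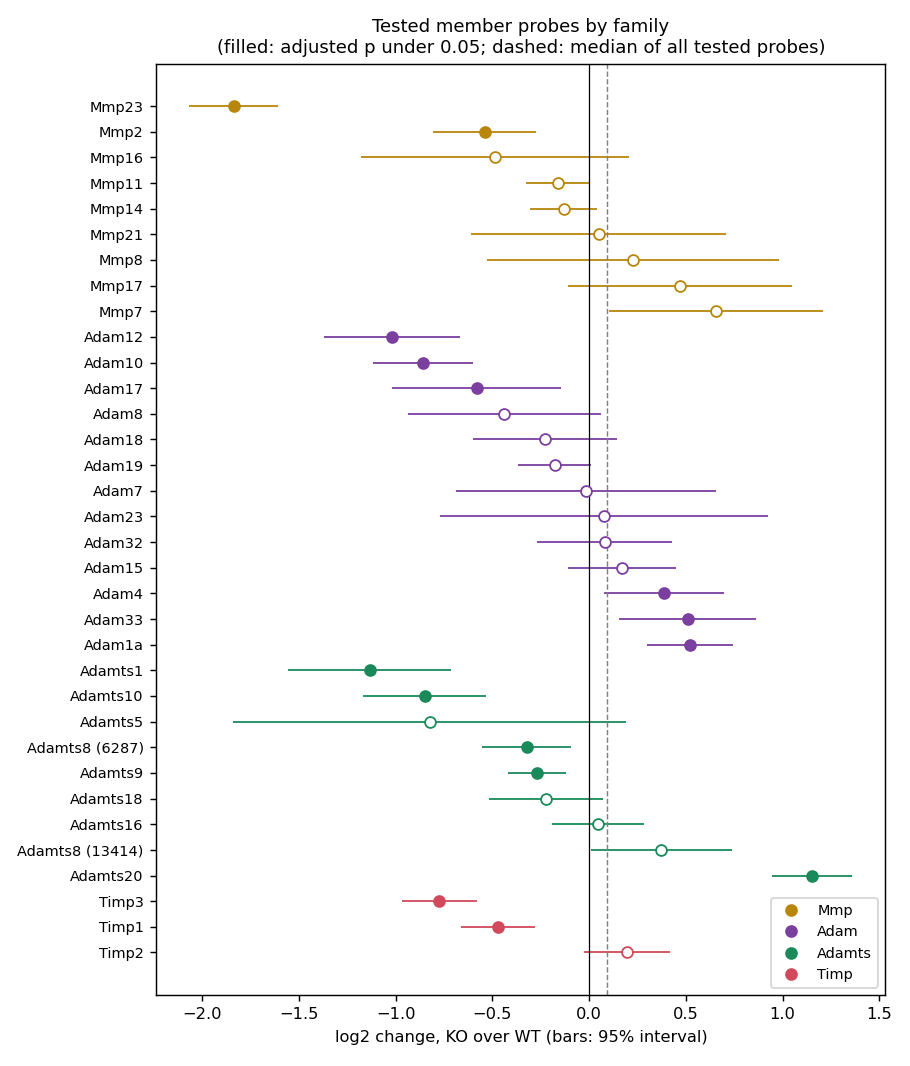
Log2 change (KO over WT) on the horizontal axis for each of the 34 tested member probes, grouped by family, with 95% intervals; filled points passed adjusted p under 0.05. Mmp23 lies farthest to the left at -1.84 and Adamts20 farthest to the right at 1.15, and the dashed line marks the median of all tested probes, 0.09.

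**Figure D2:**
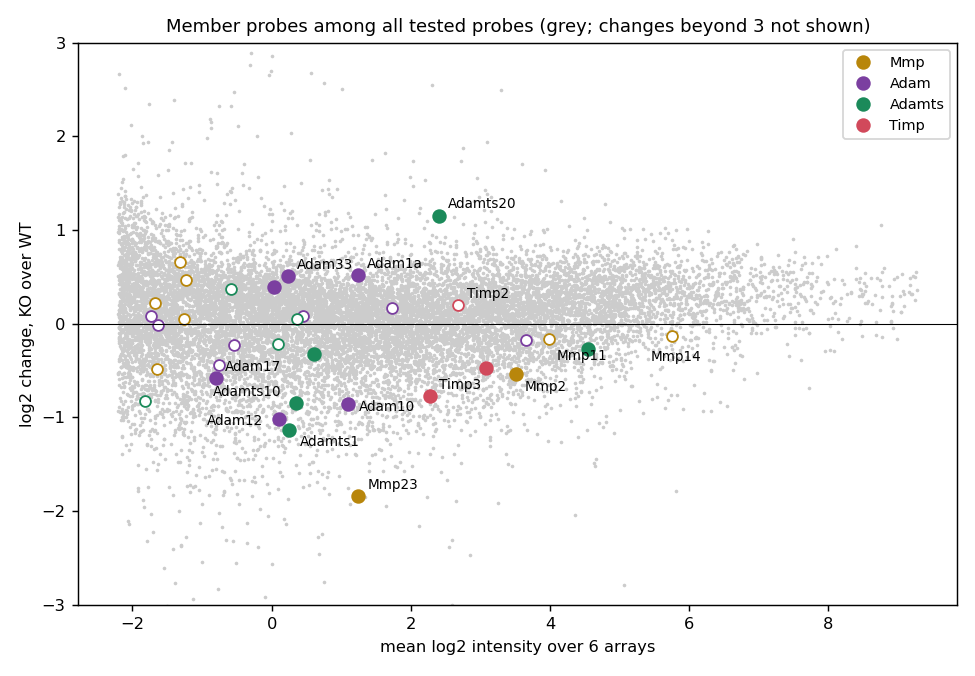
Mean log2 intensity over the 6 arrays (horizontal) against log2 change, KO over WT (vertical), for all 15062 tested probes in grey and the 34 tested member probes in colour, filled where called. The 15 called members lie between mean log2 intensities of -0.80 (Adam17) and 4.55 (Adamts9). Most open points of the Mmp family lie at the dim end of the intensity range.

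The promoters of the Mmp, Adamts and Timp members that fell most, and of the member that rose most, are shown so that their sequence can be set beside their values. They are followed by those of a pair of collagenase and stromelysin genes that stayed dim in both genotypes. Each is the 250 bases before the annotated start, from RefSeq's promoter table (GRCm38.p6), which holds 29 of the 53 member genes. Capitals mark matches, on either strand, to TGANTCA (the AP-1 element known from Mmp promoters), GCGNGGGNG (the element shared by Egr and Wt1 type zinc fingers) or TATAAA (the TATA element). None of these motifs overlapped another in the 6 sequences. The windows are chr4:155653385-155653634 on the minus strand for Mmp23, chr16:85803114-85803363 on the minus strand for Adamts1 and chr10:86300162-86300411 on the plus strand for Timp3. Those of the other genes are chr15:94404351-94404600 on the minus strand for Adamts20, chr9:7272264-7272513 on the plus strand for Mmp13 and chr9:7445572-7445821 on the plus strand for Mmp3. The windows of Mmp23 (1 of 2 in the table) and Adamts20 belong to starts 1155 and 27724 bases inside the annotated gene.
Mmp23: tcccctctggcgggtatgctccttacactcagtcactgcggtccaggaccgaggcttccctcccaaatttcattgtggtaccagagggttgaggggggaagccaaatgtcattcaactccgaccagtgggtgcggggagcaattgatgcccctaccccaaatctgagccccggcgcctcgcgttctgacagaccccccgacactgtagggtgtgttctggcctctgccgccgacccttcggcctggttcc
Adamts1: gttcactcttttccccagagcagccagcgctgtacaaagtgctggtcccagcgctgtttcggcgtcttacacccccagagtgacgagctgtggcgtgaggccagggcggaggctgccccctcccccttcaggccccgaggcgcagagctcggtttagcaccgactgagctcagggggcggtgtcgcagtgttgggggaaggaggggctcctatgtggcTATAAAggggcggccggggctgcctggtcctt
Timp3: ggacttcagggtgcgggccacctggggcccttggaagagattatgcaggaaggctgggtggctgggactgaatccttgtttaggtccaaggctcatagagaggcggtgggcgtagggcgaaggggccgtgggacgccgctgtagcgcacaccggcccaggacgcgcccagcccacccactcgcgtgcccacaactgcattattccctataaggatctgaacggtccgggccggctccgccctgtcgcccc
Adamts20: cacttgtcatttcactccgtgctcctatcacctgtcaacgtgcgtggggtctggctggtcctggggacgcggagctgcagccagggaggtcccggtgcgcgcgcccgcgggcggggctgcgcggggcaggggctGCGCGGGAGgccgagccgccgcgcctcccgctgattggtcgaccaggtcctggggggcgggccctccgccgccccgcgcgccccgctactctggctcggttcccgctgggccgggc
Mmp13: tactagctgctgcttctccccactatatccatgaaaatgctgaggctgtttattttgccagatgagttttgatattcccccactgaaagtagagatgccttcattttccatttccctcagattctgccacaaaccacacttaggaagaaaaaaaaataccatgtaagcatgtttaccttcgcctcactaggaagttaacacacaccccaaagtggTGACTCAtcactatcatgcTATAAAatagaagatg
Mmp3: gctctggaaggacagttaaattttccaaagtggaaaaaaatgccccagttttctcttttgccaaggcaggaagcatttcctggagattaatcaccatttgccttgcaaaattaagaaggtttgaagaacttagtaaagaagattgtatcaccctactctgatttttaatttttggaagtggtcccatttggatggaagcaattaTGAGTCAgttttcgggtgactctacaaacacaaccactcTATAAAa

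No AP-1 match lay in the 8 windows of members that were lower in KO, against 6.75% of all 32851 promoter windows, and the Egr and Wt1 type motif, found in 10.5% of all windows, had no match there either. Among the 2 windows of members that were higher, that of Adamts20 held the latter motif once. The motif was also in 4 of 14 windows of members that did not pass (Adam23, Mmp11, Mmp14 and Timp2). Mmp24 held it too, in 1 of 10 windows of members too dim to test. With so few windows, neither its presence nor an absence can be tied to the direction of change. Bases G and C made up 61.2% of the Mmp23 window, 65.6% of those of Adamts1 and Timp3, 76.4% of that of Adamts20, 40.4% of that of Mmp13 and 37.6% of that of Mmp3, against a median of 52.4% over all windows. A match is a description of the letters and not a bound site.

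Mmp23, a membrane-anchored Mmp known in human tissue for its expression in the ovary and other reproductive organs, showed the largest change of any member. Its deposited intensity was 1.11, 1.45 and 1.23 on the KO arrays, against 4.38, 4.57 and 4.47 on the WT arrays. All KO arrays lay below all WT arrays, by more than the spread of either. The means were 1.26 ± 0.172 in KO and 4.47 ± 0.0927 in WT (SD, n = 3 each), a 3.57-fold lower signal with a log2 change of -1.84 ± 0.10 (SE) and adjusted p = 2.98e-07 (limma). In whole ridges, fewer cells of a type and less RNA per cell cannot be told apart. Marker counts here and below are to be read beside all tested probes, of which 17.2% were lower and 24.1% higher. Of 6 tested gonadal primordium markers, 5 were also lower and none was higher. Their summed intensities were 10.6 to 11.4 in KO against 48.8 to 51.2 in WT. Most of that gap was Amhr2, at 0.480 in KO and 30.6 in WT, and the other markers summed to 10.1 to 10.9 in KO against 18.4 to 20.1 in WT, with Gata4 not passed. Sums without the gene of the largest gap were added for every marker list after the values were seen. Of 7 tested coelomic epithelium and mesothelium markers, 4 were lower, Wt1 among them, with sums of 53.6 to 54.1 in KO against 80.6 to 86.6 in WT (Msln and Gpm6a were too dim to test). Nearly all of this gap was Wt1, the deleted gene. Without it the sums were 38.4 to 39.4 in KO and 41.6 to 42.8 in WT. Most of each remaining sum was Krt18, with means of 28.5 in KO and 27.2 in WT. Krt18, Lrrn4 and Upk1b did not pass. The other lower markers were dimmer than Krt18, so the sums hardly show their changes. Mean intensities were 0.150 in KO and 1.96 in WT for Muc16, and 0.618 and 1.67 for Krt8. For Krt19 they were 3.81 in KO and 6.23 in WT. The part of these cells in the Mmp23 result was not tested.

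Mmp2, the gelatinase that cuts denatured collagen and type IV collagen, was the other Mmp that was lower in KO. It read 7.60, 11.1 and 9.95 on the KO arrays, against 14.9, 12.8 and 13.5 on the WT arrays. The genotypes did not overlap, although the second KO array came close to the lowest WT array. The mean was 9.54 ± 1.77 in KO and 13.7 ± 1.09 in WT (SD, n = 3 each), 1.45-fold lower, with adjusted p = 0.00395 (limma).

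Mmp14, the membrane-type enzyme that activates the Mmp2 proenzyme at the cell surface, did not pass as scaled by the authors. Its values of 48.6, 55.5 and 51.0 in KO overlapped those of 55.7, 53.6 and 60.7 in WT, with a log2 change of -0.13 (95% interval -0.30 to 0.04) and adjusted p = 0.206 (limma). Under quantile and cyclic loess normalization the change was -0.38 and -0.36 and passed, with adjusted p = 0.00247 and 0.00314, so the call depends on the scaling. Mmp11, or stromelysin 3, a stromal Mmp, behaved likewise. It read 14.2, 15.4 and 15.5 in KO against 16.3, 18.0 and 16.1 in WT, which do not overlap, with adjusted p = 0.111, and 0.00764 and 0.00644 under the same pair of normalizations. Mmp7, or matrilysin, also had arrays that did not overlap, with 0.597, 0.482 and 0.438 in KO above 0.272, 0.361 and 0.328 in WT, and missed the threshold at adjusted p = 0.0568 (limma). The tested probes of Mmp8, Mmp16, Mmp17 and Mmp21, each with means under 0.6 in both genotypes, overlapped and did not pass.

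The remaining Mmp genes were too dim to test: Mmp1a, Mmp1b, Mmp3, Mmp9, Mmp10, Mmp12, Mmp13, Mmp19, Mmp20 and Mmp24, as was a second probe of Mmp17. Of the Mmp genes on the array, 9 are neighbours in the genome (GRCm38.p6 gene order), a block of collagenases, stromelysins and others that holds Mmp1a, Mmp1b, Mmp3, Mmp7, Mmp8, Mmp10, Mmp12, Mmp13 and Mmp20. Only Mmp7 and Mmp8 in this block were bright enough to test, and neither passed. Promoter windows of 8 of these 9 genes held the AP-1 motif and those of 7 held TATAAA. By window, that is 72.7% and 63.6% of the 11 windows of these genes, against 6.75% and 12.4% of all windows. The windows of Mmp13 and Mmp3 printed above each have 1 match to both. Macrophage markers mark a cell type that makes several of these enzymes in the adult. Their sums were 9.56 to 12.1 in KO and 8.92 to 9.45 in WT. Of 7 tested markers 2 were higher, against 24.1% of all tested probes. Without Aif1 the sums overlapped, at 6.25 to 8.47 in KO and 6.60 to 6.75 in WT. None of the 7 was dim enough to be left out.

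Among the Adams, 3 genes were lower and 3 higher in KO, of 13 genes tested out of 21. That is 46.2% called, near the 41.3% of all tested probes. The 3 that were lower are somatic sheddases or a fusion-associated member. Adam12, a meltrin of mesenchyme and forming muscle, read 0.615, 0.777 and 0.909 in KO against 1.56, 1.75 and 1.32 in WT. Every KO array was below every WT array, and the signal was 2.03-fold lower (log2 change -1.02 ± 0.16, SE, adjusted p = 0.000387, limma). Adam10, the main sheddase of Notch receptors and N-cadherin, read 1.38, 1.89 and 1.56 in KO against 2.97, 3.01 and 2.71 in WT. This was a 1.81-fold lower signal, again without overlap (log2 change -0.86 ± 0.12, SE, adjusted p = 0.00014, limma). A second Adam10 probe (9426) was too dim to test and went the other way, with 0.160, 0.211 and 0.440 in KO against 0.136, 0.0478 and 0.142 in WT, which do not overlap. Without the dim filter it had an unadjusted p under 0.05 and did not pass after adjustment (limma). The direction given for Adam10 thus rests on the brighter probe alone.

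Adam17, the sheddase of Tnf and of Egf receptor ligands, read 0.400, 0.603 and 0.433 in KO against 0.718, 0.717 and 0.679 in WT. The genotypes did not overlap and the signal was 1.496-fold lower (log2 change -0.58 ± 0.20, SE, adjusted p = 0.0353, limma). The call was lost without the filter on dim probes and without any 1 of 5 arrays, with adjusted p up to 0.109. Without the second KO array, the highest of the 3, it was kept with the smallest adjusted p of its alternatives, 0.00831. Both Adam10 and Adam17 cut within the membrane-proximal part of their substrates, and several such substrates are given with the related genes below.

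The Adams that were higher in KO changed less. Adam1a, known mainly from testis and also expressed in other tissues, read 2.84, 2.72 and 2.89 in KO against 1.70, 2.13 and 2.09 in WT. It was 1.44-fold higher without overlap (log2 change 0.52 ± 0.10, SE, adjusted p = 0.00162, limma), and passed under every alternative tried. Adam33, a mesenchymal Adam known from human airway smooth muscle, was 1.42-fold higher on 1 probe (6920) but overlapped by 1 array. It read 1.55, 1.10 and 1.63 in KO against 1.15, 0.921 and 0.910 in WT (adjusted p = 0.0253, limma), and its other probe was too dim to test. Adam4, a testis Adam, read 1.0003, 1.39 and 1.14 in KO against 0.852, 0.954 and 0.875 in WT, 1.31-fold higher with adjusted p = 0.0466 (limma). The calls of Adam33 and Adam4 were lost under 4 and 7 of 15 alternatives, with adjusted p up to 0.102 and 0.159. For Adam33 these included leaving out the third KO, the second WT or the third WT array, and for Adam4 leaving out any array but the first KO array.

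Adams were also counted by where they are chiefly known to act. Of the 10 Adams known mainly from testis or epididymis, 5 were tested (Adam1a, Adam4, Adam7, Adam18 and Adam32), and 2 of these were higher and none lower. Of the 11 somatic Adams, 8 were tested, and 3 were lower and 1 higher. These are 40.0% and 50.0% called, near the 41.3% of all tested probes, and the classes were not tested against each other. Adam19, a meltrin of heart and neural crest derivatives, read 11.9, 12.0 and 11.7 in KO against 14.9, 13.7 and 11.9 in WT and did not pass (adjusted p = 0.122, limma), but passed as lower with array weights (adjusted p = 0.0484), under cyclic loess (adjusted p = 0.0190) and under quantile normalization (adjusted p = 0.0238) and without the third WT array (adjusted p = 0.0304). Adam8, Adam15 and Adam23 overlapped between genotypes and did not pass. The neighbouring genes Adam18, Adam3, Adam5, Adam32 and Adam9 held 2 tested genes and no call.

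**Figure D3:**
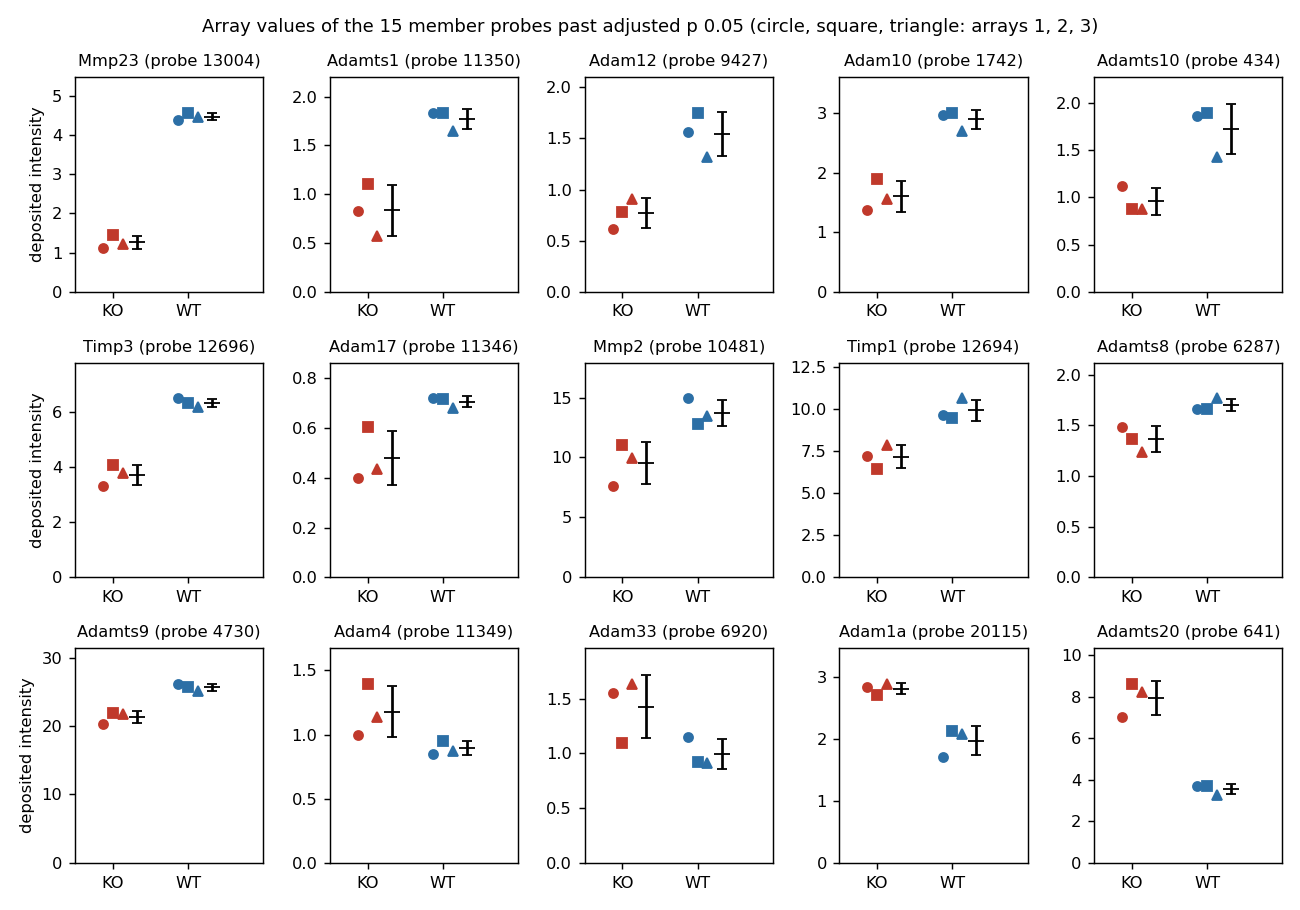
Deposited intensity (vertical axis, linear, from 0) of the 15 called member probes on each array, with KO in red at the left and WT in blue at the right of each panel; bars give the mean and SD of 3 arrays. KO and WT arrays separate in every panel except that of Adam33.

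The Adamts family moved in both directions. Adamts20, an Adamts known from the belted mouse, whose coat spotting follows the loss of melanoblasts, and able to cut versican, rose most of all members. It read 7.01, 8.61 and 8.21 in KO against 3.71, 3.71 and 3.28 in WT. The lowest KO array was well above the highest WT array, and the means were 7.95 ± 0.833 in KO and 3.56 ± 0.246 in WT (SD, n = 3 each). The signal was 2.22-fold higher with a log2 change of 1.15 ± 0.09 (SE) and adjusted p = 3.96e-06 (limma). Markers of neurons and neural crest moved with it: 8 of 9 tested markers were higher and none lower, with summed intensities of 77.9 to 79.2 in KO against 20.2 to 21.8 in WT, and none was too dim to test. Zic1 had the largest gap, and without it the sums were 47.8 to 50.2 in KO against 18.7 to 20.1 in WT. Skeletal and cardiac muscle markers were higher at 7 of 9 and lower at 1, with sums of 54.5 to 60.5 in KO against 46.4 to 49.7 in WT and Myog too dim to test. Without Tnnc2 these sums overlapped, at 47.5 to 53.997 in KO and 46.1 to 49.4 in WT. The part of either cell type in the Adamts20 result was not tested.

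Adamts1, which cuts versican and aggrecan and is needed for ovarian follicles and the kidney in mice, fell most in the family. It read 0.827, 1.10 and 0.573 in KO against 1.83, 1.83 and 1.65 in WT. The KO arrays differed more among themselves than the WT arrays did, and all lay below WT. The mean was 0.833 ± 0.263 in KO and 1.77 ± 0.106 in WT (SD, n = 3 each). It was 2.20-fold lower (log2 change -1.13 ± 0.19, SE, adjusted p = 0.000634, limma). Its neighbour Adamts5, another aggrecanase, was dim and variable, with 0.295, 0.102 and 0.325 in KO against 0.308, 0.351 and 0.499 in WT, and did not pass (adjusted p = 0.177, limma). Endothelial markers, from a cell type known to make Adamts1, were lower at 4 of 6 tested genes and higher at 1, while their sums overlapped at 69.2 to 70.0 in KO and 68.6 to 71.6 in WT (Cdh5 was too dim to test). Without Kdr the sums were 31.2 to 32.9 in KO against 38.0 to 38.8 in WT. Their part in the Adamts1 result was not tested.

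Adamts10, which acts on fibrillin microfibrils, read 1.12, 0.878 and 0.872 in KO against 1.86, 1.89 and 1.42 in WT. It was 1.80-fold lower without overlap (log2 change -0.85 ± 0.15, SE, adjusted p = 0.000671, limma). Adamts9, a versican-cutting enzyme that works together with Adamts20 in mouse palate and skin, changed little in size but with small spread. It read 20.3, 21.9 and 21.8 in KO against 26.1, 25.7 and 25.1 in WT, 1.20-fold lower with adjusted p = 0.00848 (limma). Adamts9 and Adamts20 thus went opposite ways on the same arrays.

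The probes of Adamts8, an enzyme with weak aggrecanase activity, disagreed. The brighter one (6287) read 1.49, 1.37 and 1.23 in KO against 1.67, 1.66 and 1.76 in WT and passed as lower (log2 change -0.32 ± 0.11, SE, adjusted p = 0.0286, limma). The dimmer one (13414) read 0.900, 0.693 and 0.704 in KO against 0.608, 0.555 and 0.598 in WT, which is higher without overlap, and did not pass (log2 change 0.37 ± 0.17, SE, adjusted p = 0.0948, limma). No direction is given for this gene, and the call of the brighter probe was lost under 6 of 15 alternatives, with adjusted p up to 0.101, among them leaving out the third KO array or any WT array. Adamts16 and Adamts18 did not pass, with log2 changes of 0.05 (95% interval -0.19 to 0.29) and -0.22 (95% interval -0.51 to 0.07), and Adamts4 was too dim to test.

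Of the inhibitors, Timp3 and Timp1 were lower in KO and Timp2 did not pass. Timp3, which is held in the matrix and blocks Adam10, Adam17 and Adamts enzymes as well as Mmps, read 3.31, 4.05 and 3.76 in KO against 6.47, 6.30 and 6.18 in WT. The genotypes were far apart relative to their spread, with means of 3.71 ± 0.375 in KO and 6.32 ± 0.147 in WT (SD, n = 3 each). It was 1.71-fold lower (log2 change -0.77 ± 0.09, SE, adjusted p = 3.8e-05, limma).

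Timp1, a secreted inhibitor of most soluble Mmps, read 7.21, 6.45 and 7.87 in KO against 9.66, 9.48 and 10.6 in WT. It was 1.39-fold lower without overlap (log2 change -0.47 ± 0.09, SE, adjusted p = 0.00123, limma). Timp2, which both inhibits Mmps and bridges Mmp14 to the Mmp2 proenzyme, read 7.93, 5.96 and 6.86 in KO against 5.62, 6.23 and 6.13 in WT. The arrays overlapped, with a log2 change of 0.20 (95% interval -0.03 to 0.42) and adjusted p = 0.142 (limma), and without the second KO array it passed as higher with adjusted p = 0.0268. Timp4, an inhibitor chiefly of heart and brain, was too dim to test, with mean intensities of 0.145 in KO and 0.118 in WT.

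Of the genes whose products meet at the cell surface to activate Mmp2, Mmp2 itself was lower, and Mmp14 and Timp2 did not pass as scaled by the authors; whether their changes differ was not tested. Furin, the convertase that activates Mmp14 and many Adams, also did not pass, with means of 14.79 in KO and 15.96 in WT (adjusted p = 0.346, limma). Reck, a membrane-bound inhibitor of Mmp14, Mmp2 and Adam10, was dim in both genotypes at 0.323 in KO and 0.307 in WT and did not pass (adjusted p = 0.943, limma).

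Members, like the array as a whole, varied more between KO arrays than between WT arrays. The median SD of log2 values over the 34 tested probes was 0.220 in KO and 0.104 in WT, and the KO spread was the larger at 27 of them, or 79.4%. Over all tested probes the medians were 0.153 in KO and 0.0950 in WT, and the KO spread was the larger at 68.8%. Of the 11 called members that were lower, 7 had their lowest KO value on the first KO array, against 41.9% of all called lower probes. The first KO array was also the lowest KO array at 45.8% of all tested probes and at 59.4% of all probes called higher. Without that array, 10 members were lower and 5 higher.

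Genes around the metalloproteases were taken from lists of regulators, other zinc metalloendopeptidases, Adamts-like proteins and substrates. Among regulators, which include convertases, the plasminogen system and trafficking partners, 1 of 15 tested genes was lower and 3 were higher, or 26.7% called against 41.3% of all tested probes. Plat, tissue plasminogen activator, whose product plasmin can activate Mmp proenzymes, read 0.580, 0.468 and 0.192 in KO against 1.55, 1.66 and 1.67 in WT. All KO arrays were lower, and the signal was 4.35-fold lower (log2 change -2.12 ± 0.32, SE, adjusted p = 0.000255, limma). Thbs2, thrombospondin 2, a matrix protein that helps clear Mmp2 from the cell surface, was 2.08-fold higher, with means of 1.19 ± 0.178 in KO and 0.572 ± 0.0801 in WT (SD, n = 3 each, adjusted p = 0.00031, limma). Tspan5, a tetraspanin that carries Adam10 to the cell surface, was 1.42-fold higher (adjusted p = 0.00137, limma), opposite to the brighter Adam10 probe. The third gene that was higher, Tspan17, is of the same tetraspanin group. The other tetraspanins on the list did not pass and moved in both directions. Tspan14 and Tspan15 had KO arrays below WT without overlap and did not pass (log2 change -0.20 and -0.37, adjusted p = 0.0674 and 0.0611, limma). Tspan10 and Tspan33 overlapped and did not pass, with log2 changes of 0.61 and -0.12 (adjusted p = 0.0911 and 0.815, limma). Tspan10 thus went the same way as Tspan5 and Tspan17.

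Of 17 other zinc metalloendopeptidases and their relatives, 5 were higher and 3 lower, or 47.1% called, near the 41.3% of all tested probes. Pappa, which cuts Igf binding proteins, read 0.874, 1.33 and 1.10 in KO against 2.63, 2.59 and 3.16 in WT, 2.56-fold lower (adjusted p = 2.69e-05, limma). Ecel1, an endopeptidase of neurons, was 2.12-fold higher (0.843 ± 0.159 in KO and 0.396 ± 0.0543 in WT, SD, n = 3 each, adjusted p = 0.00143, limma), and Nrd1, nardilysin, an enhancer of Adam17 shedding, was 1.49-fold higher (adjusted p = 0.000214, limma). Bmp1, the procollagen C-proteinase, did not pass. Of 6 tested Adamts-like and related genes, which have no protease domain, 3 were higher and none lower, against 24.1% of all tested probes higher and 17.2% lower. Adamtsl4, which binds fibrillin microfibrils, read 7.88, 10.6 and 8.998 in KO against 4.48, 3.99 and 3.96 in WT, 2.20-fold higher (adjusted p = 9.45e-06, limma), Adamtsl2 was 1.68-fold higher and Spon2 1.34-fold higher (adjusted p = 0.00043 and 0.00472).

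Substrates were called at 16 of 28 tested genes, or 57.1% against 41.3% of all tested probes, with 10 lower (17.2% of all probes) and 6 higher (24.1% of all probes), and those that were lower included 4 collagen and 2 laminin genes. Col1a1, the chain of fibrillar type I collagen, was 4.24-fold lower, with 0.501, 0.551 and 0.595 in KO against 2.49, 2.23 and 2.26 in WT (adjusted p = 2.92e-07, limma). App, the amyloid precursor protein, which Adam10 sheds, was 2.50-fold lower (0.478 ± 0.122 in KO and 1.19 ± 0.231 in WT, SD, n = 3 each, adjusted p = 0.000368, limma). Col4a1, of basement membranes, was 1.92-fold lower (adjusted p = 4.71e-06, limma), and Col1a2, Col4a2, Cdh1, Lama1, Lamc1, Nid1 and Sparc were also lower.

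The substrates that were higher were Hbegf, Kitl, Reln, Ncan, Vcan and Hapln1. Of these, Ncan and Vcan are proteoglycans cut by Adamts enzymes and Hapln1 is their link protein. Vcan, or versican, read 33.6, 34.4 and 34.3 in KO against 20.1, 21.8 and 19.6 in WT, 1.67-fold higher without overlap (adjusted p = 1.11e-05, limma), on the same arrays that showed lower Adamts1 and Adamts9 and higher Adamts20. Vcan was named after its values were seen. The median log2 change was -0.27 over the substrates, 0.14 over the regulators, 0.29 over the other endopeptidases and 0.36 over the Adamts-like genes, beside 0.09 over all tested probes.

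**Figure D4:**
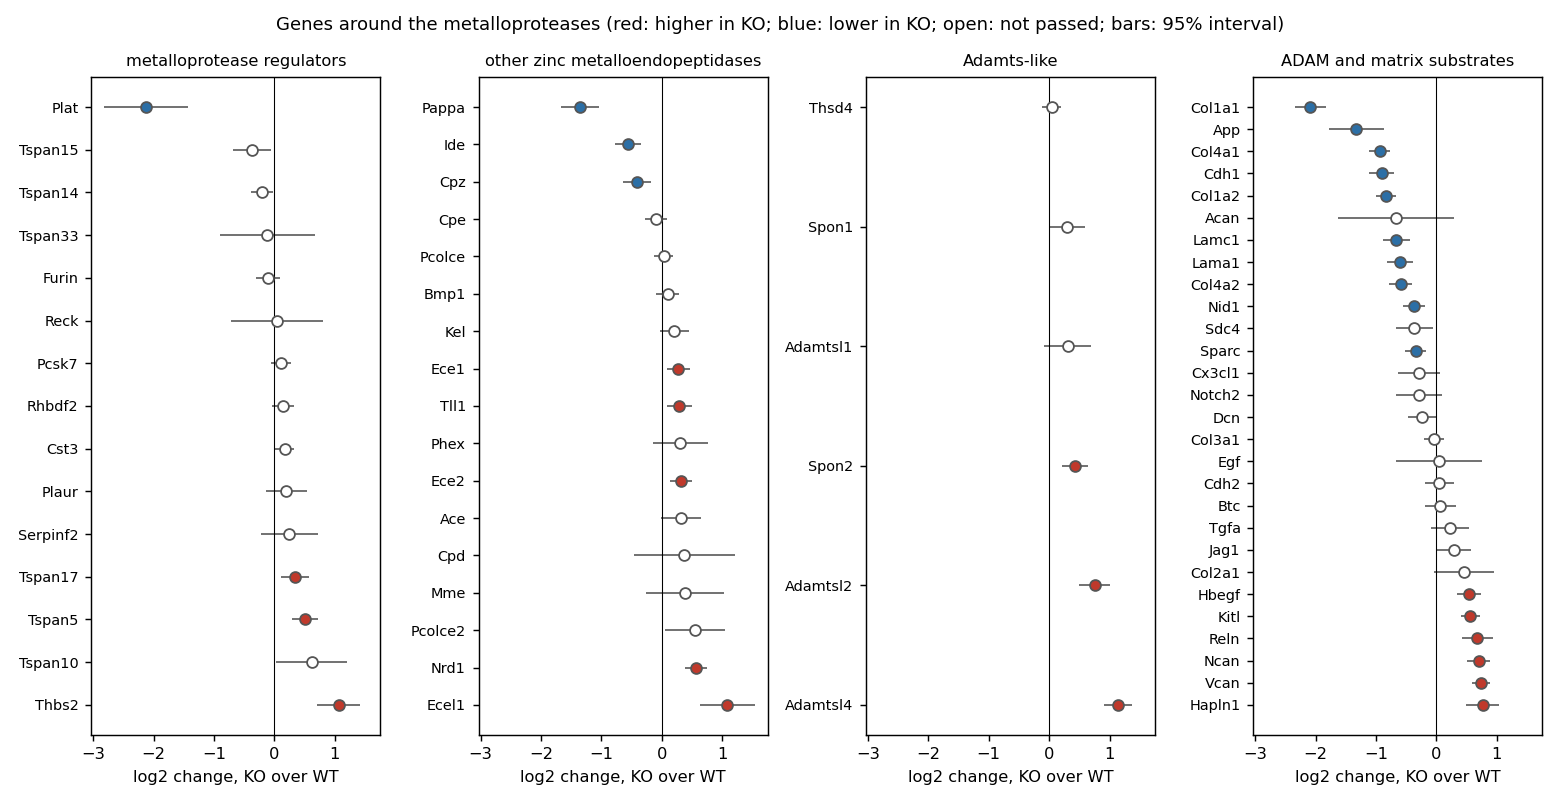
Log2 change, KO over WT (horizontal axis), with 95% intervals for the tested genes of 4 lists around the metalloproteases; red points were higher and blue points lower in KO at adjusted p under 0.05, and open points did not pass. Plat lies farthest to the left among the regulators, and Vcan, Ncan and Hapln1 lie at the right end of the substrates, with Col1a1 at the left end.

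Of the 15 called probes, 11 (Mmp23, Mmp2, Adam10, Adam12, Adam1a, Adamts1, Adamts9, Adamts10, Adamts20, Timp1 and Timp3) passed in the same direction under all 15 alternatives tried. The other 4, Adam17, Adam33, Adam4 and the brighter Adamts8 probe, kept their direction under each alternative that tested them and lost the call under some. Over these alternatives Mmp23 ranged from -1.94 to -1.65 and Adamts20 from 1.09 to 1.24 on the log2 scale.

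The counts of members are best read beside the share of all tested probes called under the same alternative. Members are given as counts, and the number tested was not the same throughout. With the filter at the median probe fewer than 34 were tested. The dimmer Adamts8 probe and every tested member probe dimmer than it were left out. These were Adam7, Adam8, Adam17, Adam23, Adamts5, Mmp7, Mmp8, Mmp16, Mmp17 and Mmp21. Leaving out an array can also change the number. Cyclic loess gave 14 lower and 4 higher members, against 20.1% and 19.7% of all probes, and quantile normalization gave 13 and 4, against 19.6% and 20.2%. Array weights gave 12 and 5, against 20.3% and 27.8%. The filter at the median probe gave 10 and 4, against 21.7% and 33.5%, and no filter gave 9 and 3 of all 58, against 12.1% and 17.3%. A variance prior with no intensity trend gave 11 and 3, against 15.0% and 20.6%. The replicate block gave 11 and 4, against 17.0% and 22.9%, as did an offset in place of the floor, against 17.4% and 24.3%. Leaving out 1 array gave 9 to 11 lower and 2 to 5 higher members, against 13.1% to 20.4% and 18.7% to 28.2% of all probes.

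**Figure D5:**
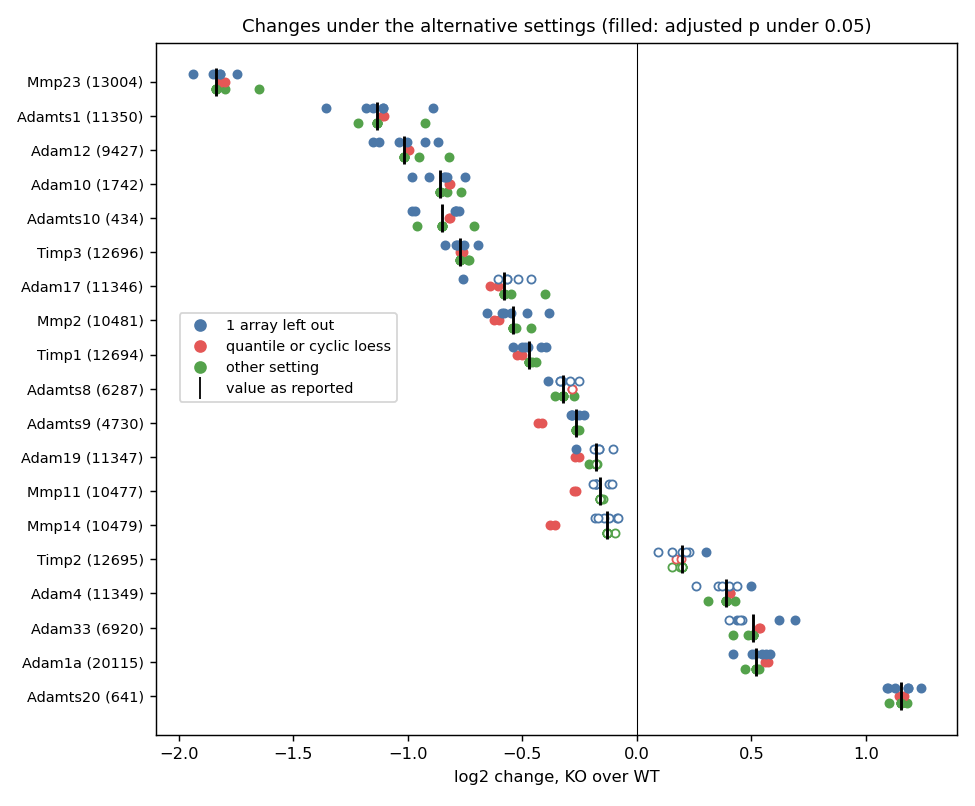
Log2 change, KO over WT (horizontal axis), of 19 member probes under 15 alternative settings, filled where adjusted p was under 0.05; the black bar is the value reported. The points of Mmp14 and Mmp11 under quantile or cyclic loess normalization lie to the left of their others and are the only filled ones, while Adam19 is filled under these, with array weights and without the third WT array.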

How the data were processed

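RNA from pooled urogenital ridges was hybridised, biotin-labelled, to CodeLink 20k mouse arrays of 1 colour, per the labels. The authors deposited linear spot intensities with a median near 1 on each array; software, background correction and flags are not stated in the sources used here. Intensities below 0.0811 (the 5th percentile of positive values) were raised to that value before taking log2. Probes entered the test with a value on at least 2 arrays per genotype and a mean log2 over the 25th percentile, an intensity of 0.217, which left 15062 of 20289. No further scaling was applied, since the arrays' log2 medians differed by 0.0153 at most.

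KO and WT, with 3 arrays each, entered 1 linear model (limma 3.58.1, R 4.3.3; moderated, two-sided, prior variance following intensity), with Benjamini-Hochberg adjustment over all tested probes. Folds are the log2 changes put back on the linear scale. Means ± SD are of the deposited intensities before the floor. Precision is limited by the number of arrays. The model did not pair the arrays by the titles' numbers. Deviations of same-numbered arrays from their genotype means correlated at -0.0208 to 0.000489, so no shared effect was seen. These values cannot show whether same-numbered arrays were collected or hybridised together.

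The members, lists and markers were chosen with earlier results of these data known. All Timp probes and called members of at least 1.5-fold were to be named with every array's value, and from each list the 3 called genes with the largest change; values of smaller or uncalled members were added after they were seen. The brightest probe stood for a gene in counts of genes. Probe symbols come from GEO's platform annotation, and all 58 member probes matched RefSeq by Entrez identifier. Promoters are from RefSeq (GRCm38.p6), and probe sequences and coordinates were not used here. Alternatives covered the normalization, the dim filter, the floor, the variance prior, array weights, a replicate block and leaving out each array.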

Additional observations from a re-analysis of the deposited data

How the results depend on the processing

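The count of lower members was 9 to 14 and that of higher members 3 to 5 over the alternatives that kept all arrays, against 11 and 4. Called probes of the Mmp family numbered 4 under quantile and under cyclic loess normalization, against 2. Regulators called numbered 2 with the filter at the median probe, against 4. The median log2 change of members was -0.24 under quantile and -0.26 under cyclic loess normalization, against -0.17, and 0.049 (reversed) without the dim filter, which adds 24 dim probes. Of those 24, none passed (limma, smallest adjusted p = 0.106) and 2 had an unadjusted p under 0.05, both higher.

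Leaving out 1 array gave 9 to 11 lower and 2 to 5 higher members, with 2 higher without the second or the third WT array. It gave 3 to 6 Adam probes (3 without the third KO or the second WT array), 2 to 3 Mmp, 4 to 5 Adamts and 2 to 3 Timp probes. The median ran from -0.18 to -0.12, and calls were 3 to 5 among regulators, 5 to 9 among other endopeptidases (5 without the first WT array, against 8), 3 to 4 among Adamts-like genes and 16 to 19 among substrates. With the replicate block 11 members were lower and 4 higher, and it changed no call of a named member. No result named here other than the median without the dim filter changed direction. Detection flags were not used here, so members with intensities near 0.217 may not be above background.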
